A study of Mus musculus with 4 samples.

Results

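The inner root sheath is the layered epithelial sleeve that surrounds and moulds the growing hair inside its follicle. The genes described here are the 7 keratins of that sheath, Krt25, Krt26, Krt27, Krt28, Krt71, Krt72 and Krt73, and Tchh, which encodes trichohyalin. They were taken by name from the array annotation, which gave each of the 8 genes exactly 1 probe set, and they were followed among 18193 named genes. The arrays came from mouse skin treated with MC903 (calcipotriol, an analogue of vitamin D) or, as Control, with ethanol, with 2 arrays in each group.

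All mice were wild-type BALB/c females, and the labels give no age. In both groups ovalbumin (OVA), an egg-white protein, had been put on ear skin together with calcipotriol to sensitise the animals, so the Control mice had met the drug as well. OVA was then given by mouth, MC903 or ethanol was applied to skin (the labels do not name the site), and OVA was given by mouth again before RNA was taken. Separate animals are not stated, and a p-value here therefore reflects the spread among 4 arrays, which may be technical. That number also limits the precision. The comparison asks what a course of MC903, set against ethanol, changed in skin transcripts.

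Keratins build their filaments from pairs of a type I and a type II chain. Krt25 to Krt28 are the type I chains of the inner root sheath and Krt71 to Krt73 the type II chains. In human follicles KRT25, KRT27, KRT28 and KRT71 are made in all layers of the sheath, and KRT26, KRT72 and KRT73 in its cuticle. Trichohyalin is a matrix protein of the sheath and of the hair medulla that binds keratin filaments. Peptidylarginine deiminases convert its arginines to citrulline, and transglutaminases crosslink it, which hardens the sheath.

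In MC903-treated skin all 7 keratins stood far below their Control levels, while trichohyalin stood close to its own. The mean signals of the keratins were 8.31 to 13.3 times lower in MC903 than in Control, which leaves 7.5% to 12.03% of the Control signal. The mean signal of Tchh was 1.39 times lower. On the log2(signal + 16) scale the keratins differed by -3.42 to -2.95, a span of 0.46, and Tchh by -0.43. In this bulk RNA, fewer sheath cells and less transcript per cell cannot be told apart.

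The start regions of some keratins are shown because these genes lie in separate gene clusters and yet differed by nearly the same amount. Of the 7 keratin windows in the RefSeq promoter table (GRCm38.p6, from 250 bases before the annotated start to 50 bases after it, 300 bases each), a type I pair and a type II pair are printed. The window of Tchh is left out, because its annotated start falls on an ATG and it is not shown to hold the promoter. Capitals mark 3 motifs searched on both strands, namely TATAAA, the core of the box that many promoters carry near the start, AGATAA, a core bound by Gata3 and its relatives, and TAATTA, a core bound by homeobox factors.
Krt25 (chr11:99322902-99323201, minus strand): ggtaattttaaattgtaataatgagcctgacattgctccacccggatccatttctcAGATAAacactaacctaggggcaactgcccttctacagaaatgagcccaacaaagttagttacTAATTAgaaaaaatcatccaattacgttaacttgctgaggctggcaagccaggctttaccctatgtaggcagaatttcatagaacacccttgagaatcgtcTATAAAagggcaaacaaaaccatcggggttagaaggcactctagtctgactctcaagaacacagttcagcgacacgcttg
Krt26 (chr11:99337916-99338215, minus strand): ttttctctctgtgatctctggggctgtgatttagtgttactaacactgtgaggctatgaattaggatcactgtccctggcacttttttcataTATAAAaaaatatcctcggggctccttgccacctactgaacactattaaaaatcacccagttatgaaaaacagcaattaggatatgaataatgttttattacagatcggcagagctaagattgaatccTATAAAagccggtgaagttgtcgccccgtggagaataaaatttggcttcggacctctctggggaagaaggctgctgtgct
Krt71 (chr15:101743048-101743347, minus strand): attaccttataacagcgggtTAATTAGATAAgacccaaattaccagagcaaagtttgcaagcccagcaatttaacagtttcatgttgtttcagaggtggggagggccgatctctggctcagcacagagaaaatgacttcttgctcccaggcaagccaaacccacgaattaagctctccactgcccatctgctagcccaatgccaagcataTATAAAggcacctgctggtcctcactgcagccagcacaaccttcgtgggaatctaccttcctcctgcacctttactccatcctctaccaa
Krt73 (chr15:101802311-101802610, minus strand): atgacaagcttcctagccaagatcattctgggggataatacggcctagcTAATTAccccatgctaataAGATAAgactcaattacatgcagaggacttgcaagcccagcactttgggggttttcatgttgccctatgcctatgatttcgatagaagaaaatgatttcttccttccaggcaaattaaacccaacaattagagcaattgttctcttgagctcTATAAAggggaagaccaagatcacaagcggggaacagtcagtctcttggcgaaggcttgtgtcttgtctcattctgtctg

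TATAAA was found in 7 of 7 keratin windows, and 13.6% of all 32851 windows of the table hold it. It began 30 bases before the start in Krt25, Krt26, Krt28 and Krt73, 40 before it in Krt71 and 15 before it in Krt27. In Krt72 the only match lay on the other strand, 203 bases before the start. AGATAA was found in 4 of 7 keratin windows, against 11.2% of all windows. TAATTA was found in 4 of 7, against 5.29%, and in Krt71 it overlaps AGATAA by a base. Of 3 further motifs searched, CTTTGAA, a core bound by Lef1, occurred in 1 keratin window, that of Krt28, where it lies after the start, and 5.14% of all windows hold it. The nuclear receptor cores AGGTCA and GGTTCA occurred in 0 of 7, against 16.3% and 10.4% of all windows. The motifs were chosen with the sequences in view, and matches are a description of these windows. The 7 windows belong to related genes and are not independent, so setting them beside the shares of all windows is not a test.

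Among the type I chains, Krt25, whose mutation gives curly coats in mice, had signals of 2323 and 1437 in MC903 and of 12350 and 18888 in Control. Both MC903 arrays lay far below both Control arrays. The log2 difference was -3.05 ± 0.35 (SE, n = 2 per group). Krt26 had signals of 65.6 and 48.4 in MC903 and of 692 and 829 in Control. It was the largest difference of the group, -3.42 ± 0.21, and its replicates lay closest together in Control. Krt27 had signals of 473 and 391 in MC903 and of 3416 and 5960 in Control, so that the difference was -3.34 ± 0.32. Krt28 had signals of 65.3 and 147 in MC903 and of 775 and 1546 in Control. Its arrays were spread about equally in both groups, and its difference of -3.27 ± 0.50 carries the widest error of the 8 genes.

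Among the type II chains, Krt71, the gene of the caracul wavy-coat mutation, had signals of 400.5 and 295 in MC903 and of 2199 and 4037 in Control. The groups stood well apart, by -3.06 ± 0.36 on the log2 scale (SE, n = 2 per group). Krt72 had signals of 44.5 and 101 in MC903 and of 527 and 762 in Control, a difference of -2.95 ± 0.40. Krt73 had signals of 263 and 340 in MC903 and of 1754 and 3812 in Control, a difference of -3.05 ± 0.42. The median difference was -3.31 over the 4 type I genes and -3.05 over the 3 type II genes. The lowest signal of any keratin, 44.5 for Krt72, was 1.86 times the highest signal of the bacterial TrpnX control probe sets (24.0), a guide to background. The constant of 16 understates the change of genes near that level.

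Tchh had signals of 6050 and 6049 in MC903 and of 6438 and 10357 in Control. Both MC903 arrays lay below both Control arrays, but the lower Control array was only just above them. The log2 difference was -0.43 ± 0.28 (SE, n = 2 per group), with a 95% interval of -1.18 to 0.31. The intervals of the keratins ran from -4.62 at the lowest end to -1.88 at the highest, so none reached that of Tchh. Without Control replicate 2 the difference of Tchh was -0.09, and without Control replicate 1 it was -0.77.

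**Figure D1:**
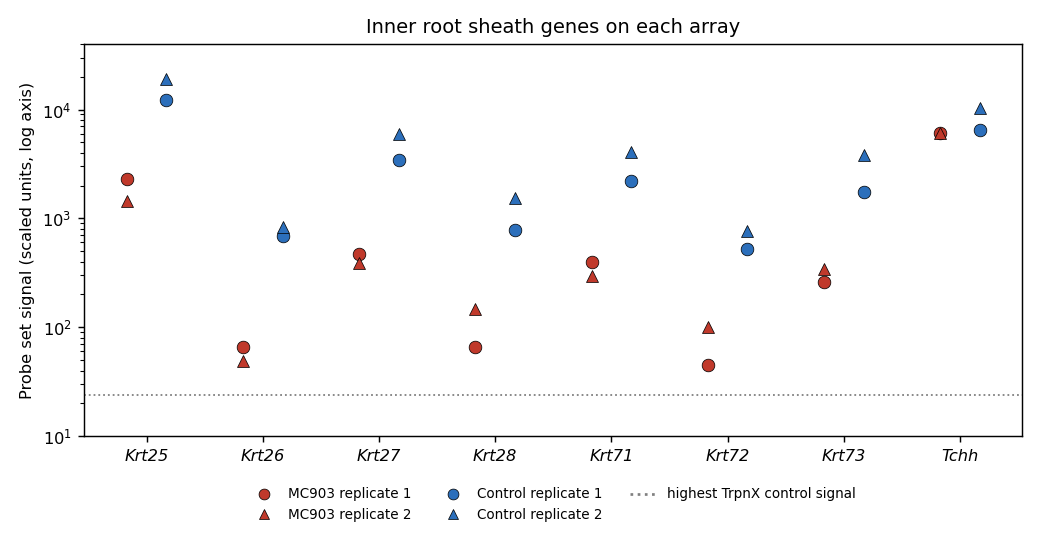
Probe set signal (vertical log axis, scaled units) of the 8 genes on each array, MC903 in red left of Control in blue, circles for replicate 1 and triangles for replicate 2. The dotted line is the highest TrpnX control signal (24.0). The MC903 points of the 7 keratins lie well below their Control points, and those of Tchh (6050 and 6049) lie just below its lower Control point (6438).

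Over all 18193 genes, limma with a constant prior variance called 0% of genes at an adjusted p below 0.05, and so 0 of the 8 genes. The adjusted p-values of the keratins were 0.0801 (Krt26) to 0.167 (Krt28), and that of Tchh was 0.515, against a smallest value of 0.0561 over all genes. Before adjustment the 7 keratins lay below 0.05, at 4.72e-05 to 0.00216, as did 8.39% of all genes on the lower side and 6.82% on the higher side (15.2% in all). With limma's prior that follows the signal, 7 of 8 genes were called lower, at adjusted p-values of 0.01 (Krt26) to 0.0472 (Krt28), and Tchh was not (adjusted p = 0.396). That test called 0.385% of all genes lower and 0.539% higher, 0.923% in all.

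Leaving out an array leaves 1 in its group, which is then assumed to vary like the pair in the other group. With the prior that follows the signal, 1 keratin (Krt27) among 15 genes was called without Control replicate 1, and 0 keratins among 5 genes without Control replicate 2. Without MC903 replicate 1 it was 5 keratins among 227 genes, and without MC903 replicate 2 it was 7 among 946, so the number of calls moved over all 18193 genes and not for the keratins alone. Over these and the other refits that changed 1 choice, each keratin stayed at -2.39 or lower. With 2 arrays a group the smallest two-sided p of an exact permutation test is 0.333.

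**Figure D2:**
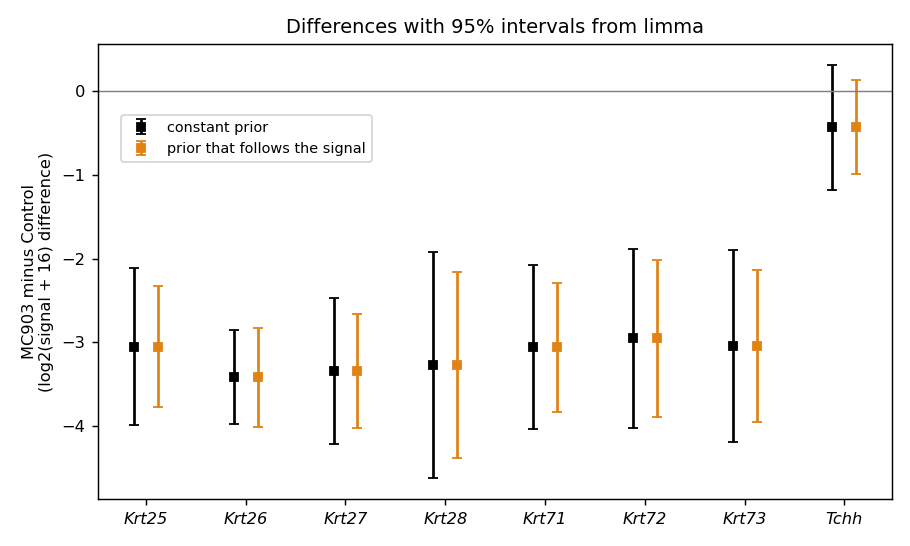
Log2(signal + 16) differences, MC903 minus Control (vertical axis), for the 8 genes, with 95% intervals from limma with a constant prior (black) and with the prior that follows the signal (orange), 2 arrays per group. The keratins cluster between -3.42 and -2.95 and the interval of Tchh crosses 0.

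Counted without a test, 8 of 8 genes had both MC903 arrays below both Control arrays, a pattern that 28.2% of all genes showed, while 21.6% showed its opposite. When each MC903 array was paired with each Control array, 7 of 8 genes were at least 2-fold lower every time, against 0.813% of all genes (1.16% were that much higher). The same 7 were at least 4-fold lower every time, against 0.335% (0.247% higher). The smallest drop in any pairing was 2.22 on the log2 scale, in Krt72. Ordered by difference from the lowest, the keratins took ranks 43 to 58 of 18193 genes and Tchh rank 2860.

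The replicates differed in the same way for all members in Control and in no common way in MC903. Control replicate 2 was above Control replicate 1 for 8 of 8 genes, by 1.20 times (Krt26) to 2.17 times (Krt73). This was not particular to them, as the 12 measured hair shaft keratins summed to 14708 in Control replicate 1 and 28529 in Control replicate 2. In MC903, replicate 1 was above replicate 2 for Krt25, Krt26, Krt27 and Krt71, and replicate 2 was above replicate 1 for Krt28, Krt72 and Krt73. The largest gap there was 2.26 times, for Krt72. Per array against the Control mean, the median difference of the 7 keratins was -3.22 in MC903 replicate 1 and -3.27 in MC903 replicate 2, so the arrays gave nearly the same size.

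The keratins were also compared with the genes next to them on the chromosome, a comparison chosen after values were seen. Krt25 to Krt28 lie side by side on chromosome 11, with Krt24 before them and Krt10 after them. Krt10, a keratin of the suprabasal epidermis, differed by 0.14 ± 0.15 (SE, n = 2 per group), with signals up to 45067 that lie close to the top of the arrays (41771 to 50150), where a difference can be compressed. Krt24, a keratin of the type I family, had signals of 1553 and 420 in MC903 and of 3968 and 4318 in Control, a difference of -2.33 ± 0.65. Its groups did not overlap, though its MC903 arrays were far apart. Of the 6 nearest measured protein-coding neighbours, 3 on each side, the others differed by no more than 0.40. Among these, Krt222, Krt12 and Krt20 had signals of 23.6 to 61.6, near the highest TrpnX signal (24.0), where a drop could hardly show. Smarce1, which was brighter, differed by -0.15 ± 0.19.

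Krt71 to Krt73 lie together on chromosome 15 between keratins of the epidermis. On one side stands Krt5, the type II keratin of the basal layer (0.11 ± 0.15, SE, n = 2 per group), followed by the wound keratins Krt6a (1.21 ± 0.22) and Krt6b (6.70 ± 0.48). On the other side stand Krt2 (0.02 ± 0.16), Krt1 (1.30 ± 0.17) and Krt77 (1.96 ± 0.46). The signals of Krt2, 38826 and 42625 in MC903 and 41039 and 39326 in Control, lie as close to the top of the arrays as those of Krt10, and its difference may be compressed in the same way. None of these 6 was lower in both MC903 arrays (28.2% of all genes were), and 5 were higher in both (21.6%). Krt74, which lies between Krt71 and Krt72 and is a pseudogene in the RefSeq table, was not analysed here.

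Tchh lies on chromosome 3 among genes of the S100-fused protein family, which carry calcium-binding ends and serve the cornified layers. Of 6 family members listed beside it, 4 were measured. Rptn, the gene of repetin and the nearest measured gene on one side, had signals of 8365 and 12659 in MC903 and of 678 and 522 in Control. Its 2 dimmer probe sets differed by -0.03 and -0.32, at signals of 18.0 to 50.3. These lie near the highest TrpnX signal (24.0), where a change is hard to gauge. Tchhl1, trichohyalin-like 1, on the other side, had signals of 242 and 287 in MC903 and of 473 and 582 in Control, a difference of -0.95 ± 0.20. Flg (filaggrin) and Hrnr (hornerin) differed by 0.58 ± 0.46 and 0.35 ± 0.26, with overlapping groups. With the prior that follows the signal 1 of the 4, Rptn, was called higher (adjusted p = 0.0056) and 0 lower. Of all genes 0.539% were called higher and 0.385% lower. Tchh thus stood between neighbours that differed in opposite directions.

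**Figure D3:**
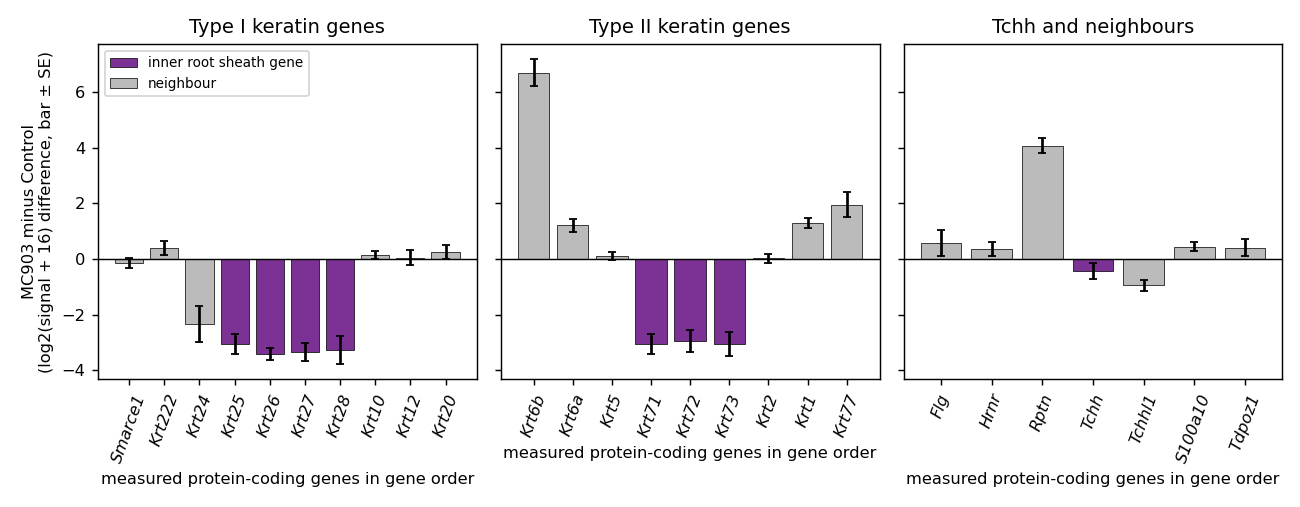
Log2(signal + 16) difference, MC903 minus Control (vertical axis, bars ± SE, 2 arrays per group), for the 8 genes (purple) and the 3 nearest measured protein-coding genes on each side (grey), in gene order and not to scale. The 2 keratin blocks point down to about -3 between flanks that lie near 0 or above it, apart from Krt24 (-2.33). Of these flanks, Krt222, Krt12 and Krt20 had signals near background, and Krt10 and Krt2 had signals near the top of the arrays. Tchh (-0.43) lies between Rptn (4.08) and Tchhl1 (-0.95).

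The enzymes that modify trichohyalin split. Padi3, the deiminase that acts on trichohyalin in the follicle, had signals of 82.9 and 98.6 in MC903 and of 435 and 832 in Control, a difference of -2.54 ± 0.35 (SE, n = 2 per group). The groups stood well apart. The other deiminases were closer to 0, with Padi1 at -0.77 ± 0.20, Padi2 at 0.03 ± 0.21 and Padi4 at 0.31 ± 0.20. The transglutaminases of the cornified layers were higher in both MC903 arrays, Tgm1 by 0.91 ± 0.15, Tgm5 by 0.94 ± 0.18 and Tgm3, which is also active in the hair follicle, by 1.13 ± 0.37. Tgm6 was dim and differed by -0.75 ± 0.35. Of the 8 enzymes, limma with a constant prior called 0, and with the prior that follows the signal Padi3 was called lower (adjusted p = 0.0438) and Tgm1 higher (adjusted p = 0.0357). The latter prior called 0.385% of all genes lower and 0.539% higher.

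Transcription factors and receptors that direct the sheath and the hair matrix spanned differences from -1.50 to 0.36. Over 11 such genes the median difference was -0.38 (-0.04 over all genes). On the 1 probe set used per gene, 7 were lower in both MC903 arrays (28.2% of all genes were) and 1, Prdm1, was higher in both (21.6%). Gata3, which specifies the inner root sheath, had signals of 2192 and 2796 in MC903 and of 2386 and 2956 in Control, with groups that overlapped. Msx2, a homeobox factor of the hair matrix, had signals of 162 and 223 in MC903 and of 507 and 631 in Control, a difference of -1.50 ± 0.23 (SE, n = 2 per group). Lef1, a nuclear partner of Wnt signalling, had signals of 50.02 and 75.3 in MC903 and of 165 and 204 in Control, a difference of -1.36 ± 0.24. The dimmer probe set of Msx2 differed by -0.30, at signals of 22.1 to 38.4, near the highest TrpnX signal (24.0), where size is hard to gauge. The other probe set of Lef1 differed by -1.47, with MC903 signals of 5.84 and 45.3, below or near that level.

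The remaining regulators lay nearer to 0. Dlx3 differed by -0.50, Foxn1, the nude-mouse gene, by -0.45, Trps1 by -0.44, Hoxc13 by -0.38 and the BMP receptor gene Bmpr1a by -0.37. The other probe set of Dlx3 differed by -0.01, with overlapping groups, and that of Foxn1 by -0.50. Those of Trps1 differed by only -0.14 to -0.04, at signals of 273 to 505. Those of Bmpr1a differed by -0.59 to 0.07, the last at signals of 13.7 to 26.7, near background. Cux1 was at 0.00 (its other 8 probe sets differed by -1.19 to 0.66), Ovol1 at 0.20 and Prdm1 at 0.36. Neither prior called any of the 11 (0 of 11 with either), and 2, Msx2 and Lef1, lay below 0.05 before adjustment with the constant prior, both lower. Of all genes, 8.39% lay below 0.05 on the lower side.

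The sheath keratins were set beside the keratins of the layers around them. Hair shaft keratins, which form the fibre inside the sheath, had a median difference of -3.25 over 12 measured genes of 16. In both MC903 arrays 10 were lower (28.2% of all genes were) and 2 higher (21.6%). Their differences ran from -5.20 (Krt33b) through -4.78 (Krt33a) to 1.25 (Krt84), a much wider span than the 0.46 of the sheath keratins. With the prior that follows the signal 7 of the 12 were called lower and 1 higher (0.385% and 0.539% of all genes were). Among the keratins of the companion layer, which adjoins the sheath from outside, Krt75, its typical keratin, had signals of 1549 and 538 in MC903 and of 1134 and 2069 in Control, so its groups overlapped. The others of that list are made in wounded epidermis too, and Krt6a, Krt6b, Krt16 and Krt17 were higher in both MC903 arrays, Krt16 by 4.41 ± 0.27 and Krt17 by 0.80 ± 0.33 (SE, n = 2 per group). Of these 5, Krt6b and Krt16 were called higher with the prior that follows the signal and 0 were called lower (0.539% and 0.385% of all genes).

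The 8 keratins of the interfollicular epidermis, which mark the labelled tissue, had summed signals of 198814 and 205248 in MC903 and of 164260 and 158899 in Control. Krt10, Krt2 and Krt14 made up most of each sum. Krt10 and Krt2 lay close to the top of the arrays and Krt14 reached 39813, so differences may be compressed. Of the 8 keratins, 6 were higher in both MC903 arrays (21.6% of all genes were) and 0 lower (28.2%), with a median of 0.31. Krt1 was the 1 called higher with the prior that follows the signal (adjusted p = 0.0236), as were 0.539% of all genes, and Krt77 differed most.

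**Figure D4:**
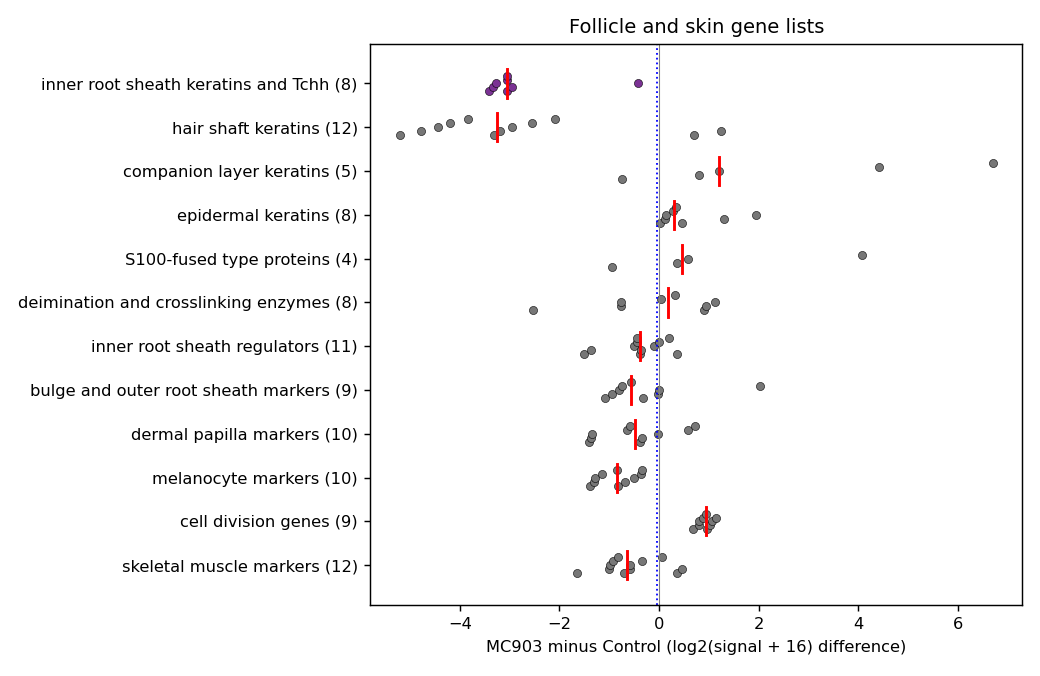
Log2(signal + 16) difference, MC903 minus Control (horizontal axis), with a point for each measured gene of 12 lists, the number of genes in brackets and a red line at each list's median. The blue dotted line is the median of all genes (-0.04). The sheath keratins form a tight group near -3 with Tchh apart at -0.43.

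Profiles over the 4 arrays were compared by the Euclidean distance between log2(signal + 16) values centred on their own mean, taken to the mean profile of the 8 genes. The nearest genes outside the group were Padi3 (distance 0.33), the hair keratin Krt81 (0.38), Lyg2, a lysozyme of the g type (0.39), the keratin-associated protein gene Krtap10-4 (0.47), Crym, which encodes a thyroid hormone binding protein (0.47), and Ly6g6d (0.48). Krt81 had signals of 260.4 and 247 in MC903 and of 1835 and 3235 in Control. The groups stood well apart, as they did for Crym, which had signals of 129 and 104 in MC903 and of 507 and 967 in Control. By the same distance the keratins ranked 4 (Krt73) to 25 (Krt28) among all genes, and Tchh ranked 1939. The mean profile includes the members themselves, and the small difference of Tchh draws it away from the keratins. The ranks and the nearest genes are therefore a description and not a test.

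Markers of other structures moved to unlike degrees beside the sheath genes, and their part in the result was not tested. Markers of melanocytes, the pigment cells that sit in the hair bulb among other places, were lower in both MC903 arrays for 10 of 10. Of all genes 28.2% were. The median of these markers was -0.83, with summed signals of 4829 and 5808 in MC903 and of 12258 and 9468 in Control. Tyrp1 and Tyr differed most, and none was at 0. Pmel was the 1 called lower with the prior that follows the signal (adjusted p = 0.0406), as were 0.385% of all genes. Dermal papilla markers had a median of -0.49 over 10 measured genes and summed signals of 4751 and 6045 in MC903 and of 15048 and 9395 in Control, led by Wif1 (-1.41 ± 0.32, SE, n = 2 per group) and Lef1. Wif1 made up most of each sum (2823 and 3791 in MC903, 11161 and 6793 in Control). Markers of the bulge and outer root sheath had a median of -0.57 over 9 genes and summed signals of 22459 and 22165 in MC903 and of 30638 and 30348 in Control. Krt15 made up most of each sum (16293 and 15884 in MC903, 23458 and 24187 in Control). In this list Dio2 differed by 2.03 ± 0.33 and Lgr5 by -1.09 ± 0.23, and 0 were called by either prior. Before adjustment with the constant prior, 5 lower and 1 higher lay below 0.05, as did 8.39% and 6.82% of all genes.

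Cell division genes were higher in both MC903 arrays for 9 of 9, against 21.6% of all genes (median 0.94, led by Ccnb2 and Cdk1). Their summed signals were 13468 and 7041 in MC903 and 4994 and 5119 in Control. Skeletal muscle markers had summed signals of 15235 and 55755 in MC903 and of 71158 and 44023 in Control, lowest in MC903 replicate 1. Of the 12 markers, 9 differed downward and 3 upward, and 10 had overlapping groups. Myh1 (-1.64) and Mylpf (-1.01) differed most. Myh4 (0.36) and Pvalb (0.46) were lowest in Control replicate 2 and not in MC903 replicate 1. The sheath keratins had medians of -3.22 in MC903 replicate 1 and -3.27 in MC903 replicate 2. Krt28, Krt72 and Krt73 were lower in MC903 replicate 1, and Krt25, Krt26, Krt27 and Krt71 were lower in MC903 replicate 2. Whether muscle content had a part was not tested. Sebaceous gland markers had a median of 0.10 over 8 genes, and Scd3 (-0.49) and Krt79 (0.26) differed most, in opposite directions. The summed signals of these markers were 82848 and 100437 in MC903 and 82234 and 84420 in Control. Adipocyte markers (median 0.69 over 7 genes, led by Retn and Cidec) had summed signals of 21331 and 31239 in MC903 and of 17492 and 16024 in Control. Most of each adipocyte sum was Fabp4.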

How the data were processed

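Total RNA from skin (200 ng) was labelled with biotin for 3′ arrays, per the labels' protocols. The deposited values are linear intensity values of 45101 probe sets. How the authors made these intensity values from the scans was not given in the sources used here. The mean without the highest and lowest 2% was 500 on each array. Median signals were 90.2 and 99.6 in MC903 and 109 and 99.7 in Control.

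Probe sets were named from the platform annotation, with symbols updated by gene ID to RefSeq (GRCm38.p6). Of the probe sets, 34945 had 1 symbol (34741 of these matched by ID), 932 had several, 9160 were unnamed and 64 were array controls. Each gene took the probe set with the highest mean log2(signal + 16), and values were not normalized or filtered further. MC903 was compared with Control in limma 3.58.1 (R 4.3.3, Benjamini-Hochberg over 18193 genes, threshold 0.05, 2 residual and 2.32 prior degrees of freedom). As an alternative the prior was allowed to follow the signal (3.72 degrees of freedom).

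Members and lists were chosen with earlier results of these data known. Named were all members, every gene of 4 related lists (regulators, enzymes, S100-fused proteins, companion layer), the 2 largest differences of other lists and the 6 nearest profiles. Other genes were chosen after their values were seen. Samples share only replicate numbers.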

Additional observations from a re-analysis of the deposited data

How the results depend on the processing

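Under 16 alternatives that changed 1 choice each, the log2 differences of the 7 keratins ran from -3.77 to -2.39. Those that changed only the variance model, the filter, the probe set choice or the replicate block left each keratin's difference as it was. They therefore add no check of its direction. In each alternative 7 members were at least 2-fold lower in every pairing of the arrays kept. Tchh ranged from -0.77 to -0.09, and with arrays centred on their medians its groups overlapped. The calls moved more. As reported, limma called 0 members and 0 genes (2767 genes at an unadjusted p below 0.05). Members called were 7 with the prior that follows the signal, 7 without the 50% dimmest genes, 3 with a constant of 64, 1 without the 25% dimmest genes and 1 with probe sets averaged. Genes called were 168, 190, 70, 36 and 12 under the same 5 settings, 3 with centred arrays and 5 when the probe set was chosen by mean linear signal, an alternative chosen after seeing the data. Without any 1 array 0 members and 0 genes were called, and the median over the 8 members ranged from -3.52 to -2.72 against -3.06. With the prior that follows the signal, an addition made after seeing the data, leaving out 1 array gave 0 to 7 members and 5 to 946 genes (15 without Control replicate 1, 5 without Control replicate 2, 227 without MC903 replicate 1, 946 without MC903 replicate 2). With the replicate block 0 members and 0 genes were called, and with the block and that prior 7 members and 228 genes. Deviations of same-numbered arrays from their group means correlated at -0.06 over genes. That value shows no pairing common to all genes, but with 2 arrays a group it cannot exclude pairing. No depth is known for arrays, and Krt26, Krt28 and Krt72 in MC903 lay closest to background.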
